A study of Mus musculus with 12 samples.

Results

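The 10 genes described here encode the ATP-binding cassette (ABC) exporters through which hepatocytes send drugs, bile acids, bilirubin conjugates, phospholipids and sterols out of the cell. They were chosen by symbol, as the 10 rows named Abcb1a, Abcb1b, Abcb4, Abcb11, Abcc2, Abcc3, Abcc6, Abcg2, Abcg5 and Abcg8 among 24033 gene symbols in a table of liver RNA sequencing. Each symbol had 1 row. The livers came from wild-type C57BL/6 female mice, and the 12 libraries formed 4 groups of 3: ovariectomized females given dexamethasone, ovariectomized females given PBS as vehicle, intact females given dexamethasone, and intact females given PBS. Dexamethasone, a synthetic glucocorticoid, was given at 1 mg/kg and livers were taken 6 h later. Ovariectomy removes the ovaries, the main source of circulating oestrogen. The labels give no age, no interval since surgery and no statement that replicates were separate animals or that intact females had a sham operation, so p-values here reflect only how far these libraries scatter, which may be technical.

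ABC exporters use ATP to move their cargo against a gradient. In hepatocytes most of them sit in the canalicular membrane, which faces the bile, where the bile salt pump, the phospholipid floppase and the sterol exporter together supply the main constituents of bile. Others sit in the basolateral membrane, which faces the blood, and can return conjugates to the circulation. Several are known targets of nuclear receptors that sense bile acids, oxysterols and drugs.

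Levels are log2 expression values as the authors deposited them, normalized between libraries. Each difference is a log2 fold change with its SE, estimated by limma over 4 groups of 3 libraries and 12965 genes whose mean level was at least 4. The threshold for passing was 0.05 after Benjamini-Hochberg adjustment. Of the 10 exporters, 9 were tested in this way. Abcb1b, at a mean level of 3.88, lay below the filter, and its values come from a fit without the filter. The median gene of each library stood at 8.82 to 8.86, and the typical gap between replicates of a group, as a root mean square over genes, was 0.172 to 0.32. The read depth behind each value is unknown, because the deposited scale no longer holds it. All 20 of 20 hepatocyte markers passed the filter, and their summed level on the log2 scale was 22.42 to 22.75 over all libraries, against 13.48 to 14.22 for 15 sinusoidal endothelial markers and 11.88 to 12.36 for 12 cholangiocyte markers, so the tissue label fits its markers. Such bulk values cannot tell fewer hepatocytes from less RNA per hepatocyte.

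With dexamethasone, most of the exporter genes were lower in both gonadal states. In ovariectomized females 5 of the 9 tested fell and none rose, where 19.4% of all genes tested fell. In intact females 9 of the 9 tested fell, where 25.9% of all genes tested fell. Under quantile normalization the order of these counts turned round, with 7 in ovariectomized and 6 in intact females. The median difference over the 9 was -0.28 in ovariectomized females and -0.88 in intact females, while the medians over all genes tested were 0 and 0.001. Abcb1a, Abcg5 and Abcg8 fell by the most in ovariectomized females, and Abcb1a and Abcg8 by the most in intact females. The dexamethasone libraries lay below all vehicle libraries for 7 of the 9 in ovariectomized females, where 26.5% of all genes tested did so, and for 8 of the 9 in intact females, where 28.6% did so. The counts are those of limma at the threshold above, and the responses themselves were compared gene by gene as described further on.

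**Figure D1:**
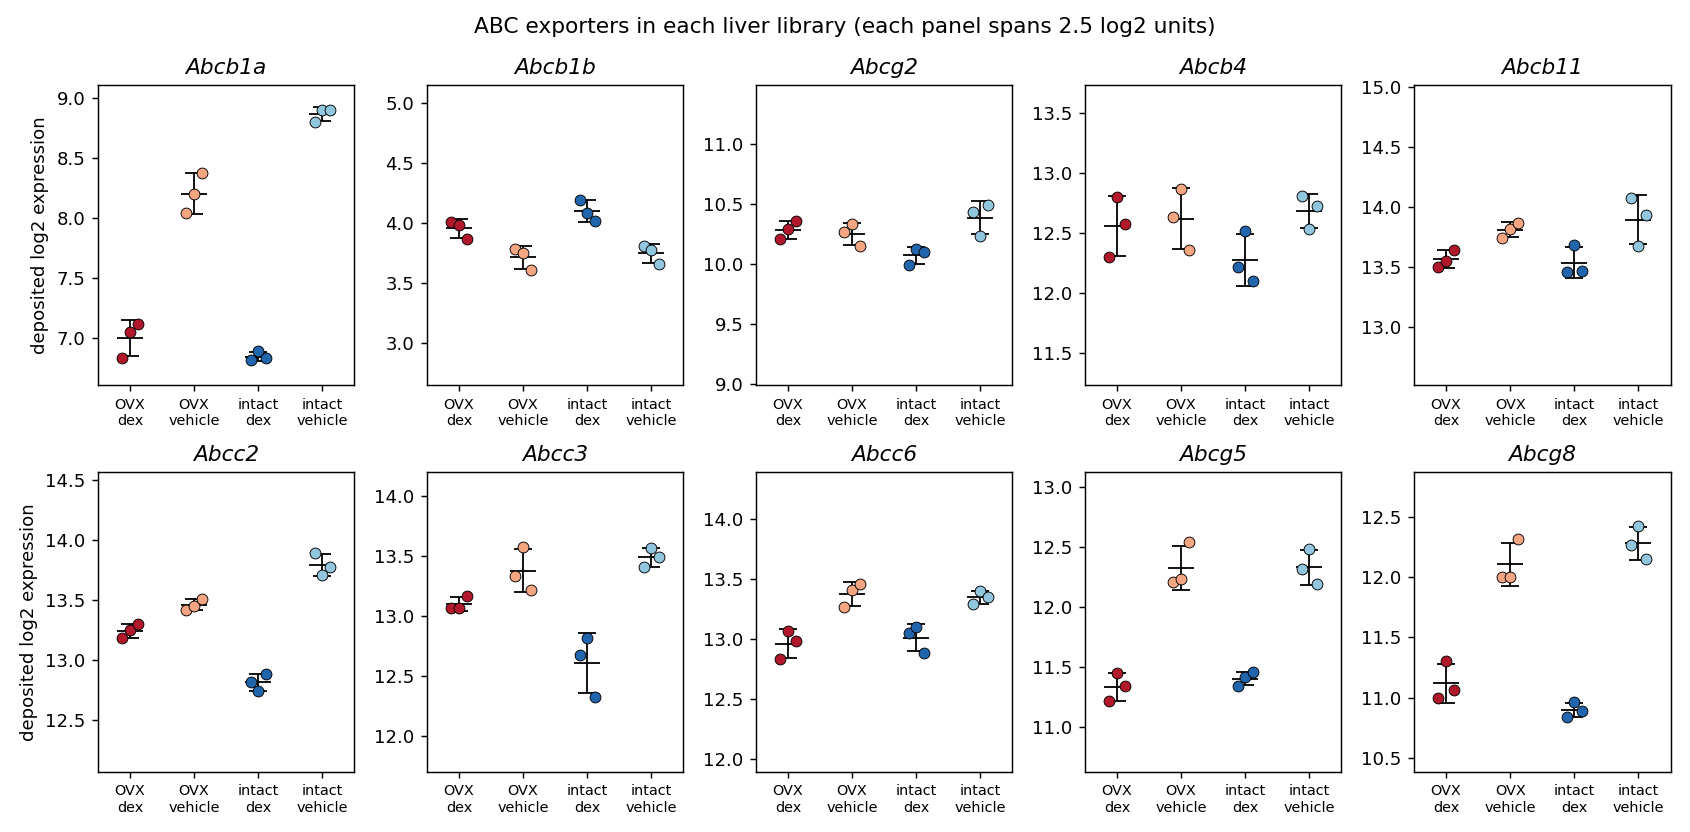
Deposited log2 expression of the 10 exporters in each library, in ovariectomized (OVX) and intact females given dexamethasone (dex) or vehicle. Points are libraries, bars are the mean ± SD of 3, and each panel covers the same number of log2 units. Abcb1a stood at 6.83 to 7.11 and 6.81 to 6.89 in the dexamethasone groups, below every vehicle library.

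Among the drug pumps, Abcb1a had the largest response of the 10 exporters. It encodes a mouse form of P-glycoprotein, which expels a broad range of hydrophobic drugs, glucocorticoids among them. In ovariectomized females its levels were 6.83, 7.05 and 7.11 with dexamethasone, against 8.04, 8.20 and 8.37 with vehicle. In intact females they were 6.81, 6.89 and 6.83 with dexamethasone, against 8.80, 8.90 and 8.90 with vehicle. The dexamethasone libraries of both gonadal states lay together, whereas the vehicle libraries of ovariectomized females lay between them and those of intact females, with no overlap. Abcb1a fell in both states, with differences of -1.21 ± 0.094, or 2.31-fold, in ovariectomized females (limma adjusted p = 6.59e-06) and -2.02 ± 0.094, or 4.06-fold, in intact females (limma adjusted p = 2.29e-07). Only 0.0231% of all genes tested had a lower difference in intact females.

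Abcb1b, which encodes the other P-glycoprotein of the mouse, moved the opposite way at a low level. Its levels were 4.01, 3.99 and 3.87 with dexamethasone and 3.79, 3.75 and 3.61 with vehicle in ovariectomized females. In intact females they were 4.20, 4.09 and 4.02 with dexamethasone and 3.81, 3.77 and 3.66 with vehicle. All dexamethasone libraries lay above the vehicle libraries of the same gonadal state. In the fit without the filter Abcb1b did not pass in ovariectomized females (0.24 ± 0.093, limma adjusted p = 0.0742) and rose in intact females (0.35 ± 0.093, limma adjusted p = 0.0117). Of its 50-base words 11.1% also occur in Abcb1a, and 16.3% of the words of Abcb1a occur in Abcb1b, so reads from either may have been split or dropped. With both entries summed on the linear scale, the total fell in both states, with differences of -1.10 ± 0.087 in ovariectomized females and -1.86 ± 0.087 in intact females (limma adjusted p = 7.07e-06 and 2.38e-07).

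Abcg2, the breast cancer resistance protein, exports drugs, urate and porphyrins at the canalicular membrane. Its levels in ovariectomized females were 10.20, 10.29 and 10.36 with dexamethasone and 10.26, 10.33 and 10.15 with vehicle. Intact females had 9.99, 10.12 and 10.10 with dexamethasone and 10.43, 10.23 and 10.49 with vehicle. The groups overlapped in ovariectomized females and did not overlap in intact females. Abcg2 did not pass in ovariectomized females (0.03 ± 0.075, limma adjusted p = 0.741) and fell by 0.32 ± 0.075 in intact females (limma adjusted p = 0.00472).

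The bile acid and phospholipid exporters had smaller differences than Abcb1a. Abcb11 encodes the bile salt export pump, which drives bile-acid-dependent bile flow. Its levels were 13.50, 13.55 and 13.64 with dexamethasone, against 13.74, 13.82 and 13.86 with vehicle, in ovariectomized females. Intact females had 13.45, 13.68 and 13.46 with dexamethasone, against 14.07, 13.67 and 13.93 with vehicle. The groups did not overlap in ovariectomized females, and in intact females replicate 2 of the dexamethasone group stood just above replicate 2 of the vehicle group. Abcb11 did not pass in ovariectomized females (-0.24 ± 0.097, limma adjusted p = 0.0621) and fell by 0.36 ± 0.097 in intact females (limma adjusted p = 0.00949). The call in intact females was lost under quantile normalization (-0.21 ± 0.085, limma adjusted p = 0.0599) and with the trend on transcript length and GC content removed (-0.22 ± 0.089, limma adjusted p = 0.0661), within a range of 5.61e-05 to 0.0661 over all alternatives. The difference in ovariectomized females passed under those same settings (-0.30 ± 0.085, limma adjusted p = 0.0164, and -0.26 ± 0.089, limma adjusted p = 0.0347), with recentred medians, with only the libraries compared and in 3 of the fits that left out 1 library (replicate 2 of intact dexamethasone or replicate 1 or 2 of intact vehicle), within a range of 0.0156 to 0.165. Which gonadal state is called for Abcb11 thus depended on these settings.

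Abcb4 encodes the floppase that delivers phosphatidylcholine to bile. Its levels were 12.30, 12.80 and 12.57 with dexamethasone and 12.63, 12.87 and 12.36 with vehicle in ovariectomized females. Intact females showed 12.21, 12.51 and 12.10 with dexamethasone and 12.81, 12.53 and 12.72 with vehicle. The groups overlapped in ovariectomized females, and the highest dexamethasone library of the intact females lay just under the lowest vehicle library. Abcb4 did not pass in ovariectomized females (-0.06 ± 0.15, limma adjusted p = 0.771) and fell by 0.41 ± 0.15 in intact females, close to the threshold (limma adjusted p = 0.0423). That call was lost in 10 alternatives, 6 of which left out 1 library (replicate 1 or 3 of intact dexamethasone, replicate 1 or 3 of intact vehicle, replicate 3 of ovariectomized dexamethasone or replicate 1 of ovariectomized vehicle), and limma adjusted p ranged from 0.0008 to 0.134 over all alternatives.

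The multidrug resistance proteins of the C subfamily fell in intact females, and for 2 of the 3 the fall was smaller after ovariectomy. Abcc2 carries bilirubin glucuronides and other conjugates into bile. Its levels were 13.18, 13.25 and 13.30 with dexamethasone, against 13.42, 13.45 and 13.51 with vehicle, in ovariectomized females. In intact females they were 12.81, 12.74 and 12.88 with dexamethasone, against 13.89, 13.71 and 13.78 with vehicle. The 4 groups did not overlap, and both groups of ovariectomized females lay between those of intact females. Abcc2 fell in both states, with differences of -0.22 ± 0.061 in ovariectomized females (limma adjusted p = 0.0144) and -0.98 ± 0.061, or 1.97-fold, in intact females (limma adjusted p = 2.16e-06). In ovariectomized females the call was lost without dexamethasone replicate 1 (limma adjusted p = 0.0577) or vehicle replicate 3 (limma adjusted p = 0.0514), within a range of 0.00211 to 0.0577 over all alternatives.

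Abcc3 sits in the basolateral membrane and can return bile acids and glucuronides to blood. Its levels were 13.07, 13.07 and 13.17 with dexamethasone and 13.34, 13.58 and 13.22 with vehicle in ovariectomized females. Intact females had 12.67, 12.82 and 12.33 with dexamethasone and 13.41, 13.57 and 13.50 with vehicle. The groups did not overlap in either gonadal state, and dexamethasone replicate 3 of the intact females was the lowest library. Abcc3 did not pass in ovariectomized females (-0.28 ± 0.12, limma adjusted p = 0.0772) and fell by 0.88 ± 0.12, or 1.84-fold, in intact females (limma adjusted p = 0.000118). In ovariectomized females it passed in 5 alternatives: quantile normalization, library weights, only the libraries compared, and without intact dexamethasone replicate 3 or ovariectomized vehicle replicate 3 (limma adjusted p from 0.0231 to 0.262 over all alternatives).

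Abcc6 is the basolateral exporter whose loss in humans causes pseudoxanthoma elasticum and which is linked to ATP release from hepatocytes. Its levels were 12.83, 13.06 and 12.98 with dexamethasone, against 13.27, 13.40 and 13.45 with vehicle, in ovariectomized females. In intact females they were 13.05, 13.10 and 12.88 with dexamethasone, against 13.29, 13.40 and 13.35 with vehicle. The groups did not overlap in either state. Abcc6 fell in both states, with differences of -0.42 ± 0.077 in ovariectomized females (limma adjusted p = 0.00146) and -0.34 ± 0.077 in intact females (limma adjusted p = 0.00392), where the call was lost under quantile normalization (-0.15 ± 0.07, limma adjusted p = 0.102) within a range of 0.000429 to 0.102 over all alternatives.

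Abcg5 and Abcg8, which work only as a heterodimer that exports cholesterol and plant sterols into bile, fell in both gonadal states. Abcg5 stood at 11.21, 11.45 and 11.34 with dexamethasone, against 12.21, 12.23 and 12.54 with vehicle, in ovariectomized females. In intact females it stood at 11.34, 11.41 and 11.45 with dexamethasone, against 12.31, 12.49 and 12.19 with vehicle. Every dexamethasone library lay below every vehicle library, and the gonadal states overlapped within each treatment. Abcg5 fell in both states, with differences of -0.99 ± 0.098, or 1.99-fold, in ovariectomized females (limma adjusted p = 2.83e-05) and -0.93 ± 0.098, or 1.90-fold, in intact females (limma adjusted p = 2.92e-05).

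Abcg8 stood at 10.996, 11.30 and 11.06 with dexamethasone, against 12.01, 12.003 and 12.32 with vehicle, in ovariectomized females. In intact females it stood at 10.84, 10.96 and 10.89 with dexamethasone, against 12.27, 12.43 and 12.15 with vehicle. The dexamethasone libraries again lay below all vehicle libraries, with those of intact females lowest. Abcg8 fell in both states, with differences of -0.99 ± 0.10, or 1.98-fold, in ovariectomized females (limma adjusted p = 3.94e-05) and -1.39 ± 0.10, or 2.62-fold, in intact females (limma adjusted p = 3.3e-06).

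Although both genes fell, the distance between them was not the same in every group. The level of Abcg5 minus that of Abcg8 within a library was 0.22, 0.15 and 0.28 with dexamethasone, against 0.20, 0.23 and 0.22 with vehicle, in ovariectomized females. In intact females it was 0.51, 0.45 and 0.56 with dexamethasone, against 0.04, 0.06 and 0.04 with vehicle. Dexamethasone and vehicle libraries thus overlapped after ovariectomy and lay far apart in intact females. The mean differed by -0.0013 in ovariectomized females (two-sided exact permutation p = 0.9) and by 0.46 in intact females (two-sided exact permutation p = 0.1, the smallest that 3 libraries against 3 allow). Averaged over both states, with treatment permuted within each, the difference was 0.23 (two-sided exact permutation p = 0.06, where 0.005 is the smallest possible). This measure was chosen after its values were seen.

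**Figure D2:**
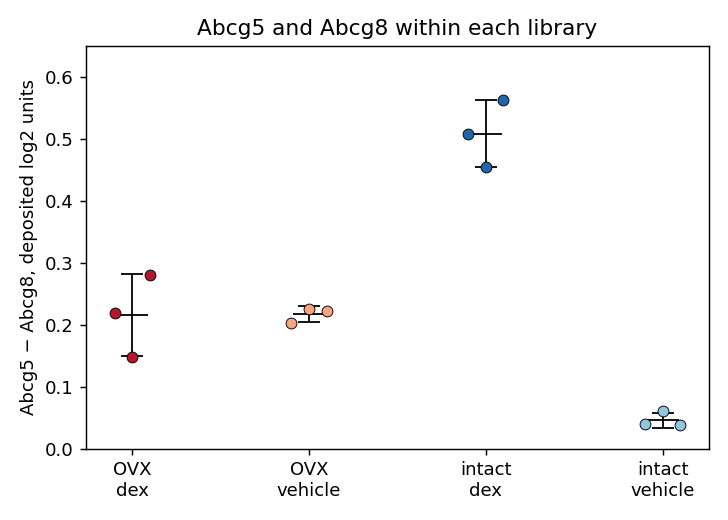
Abcg5 minus Abcg8 on the deposited log2 scale in each library of ovariectomized (OVX) and intact females given dexamethasone (dex) or vehicle, with the mean ± SD of 3. Intact dexamethasone libraries lay at 0.45 to 0.56 and intact vehicle libraries at 0.04 to 0.06, with both ovariectomized groups between them.

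The head-to-head arrangement of this pair on the chromosome is the reason its promoter is printed here, together with those of the P-glycoprotein pair, which moved apart, and of Abcc2. Promoter windows of 250 bases before to 50 bases after a start site were taken from RefSeq on GRCm38.p6, which is not the mm9 build of the expression table, and 8 of the 10 exporters matched by symbol. The start sites of Abcg5 on the minus strand and of Abcg8 on the plus strand lie 110 bases apart, so the Abcg8 window (chr17:84682871-84683170, plus strand) also holds the start of Abcg5. The other windows are those of Abcb1a (chr5:8566841-8567140, plus strand), Abcb1b (chr5:8797897-8798196, plus strand) and Abcc2 (chr19:43782058-43782357, plus strand). Capitals mark matches to AGAACA (known from glucocorticoid receptor sites), to ACANNNTGT (the spaced core of such a site) and to AGGTCA (a recognition element of several nuclear receptors) on either strand.
Abcg8: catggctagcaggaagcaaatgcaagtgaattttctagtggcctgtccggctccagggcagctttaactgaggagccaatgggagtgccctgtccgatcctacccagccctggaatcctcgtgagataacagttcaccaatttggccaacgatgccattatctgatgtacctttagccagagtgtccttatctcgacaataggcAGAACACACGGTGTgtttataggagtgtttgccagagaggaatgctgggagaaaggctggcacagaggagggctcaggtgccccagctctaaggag
Abcb1a: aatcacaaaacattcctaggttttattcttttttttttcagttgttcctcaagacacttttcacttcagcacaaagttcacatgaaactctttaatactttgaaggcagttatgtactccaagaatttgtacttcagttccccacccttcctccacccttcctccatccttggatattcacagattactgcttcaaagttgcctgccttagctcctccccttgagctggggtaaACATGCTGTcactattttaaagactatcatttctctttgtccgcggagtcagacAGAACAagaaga
Abcb1b: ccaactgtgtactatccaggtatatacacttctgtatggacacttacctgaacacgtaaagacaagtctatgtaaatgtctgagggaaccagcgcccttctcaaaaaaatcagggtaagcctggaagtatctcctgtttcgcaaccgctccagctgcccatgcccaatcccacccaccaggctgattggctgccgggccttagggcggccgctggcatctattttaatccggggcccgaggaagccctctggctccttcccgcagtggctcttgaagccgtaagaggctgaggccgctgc
Abcc2: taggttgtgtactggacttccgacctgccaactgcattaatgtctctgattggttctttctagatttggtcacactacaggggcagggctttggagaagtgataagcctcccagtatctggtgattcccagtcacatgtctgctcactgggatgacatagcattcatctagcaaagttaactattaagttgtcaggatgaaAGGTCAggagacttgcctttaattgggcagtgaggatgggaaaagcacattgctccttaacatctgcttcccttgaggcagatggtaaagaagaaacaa
The Abcg8 window holds AGAACA at position -46 from the start and, beginning with its last letter, a match to ACANNNTGT at position -41. The Abcb1a window holds a match to ACANNNTGT at position -16 and AGAACA after the start. The Abcb1b window holds neither of these nor AGGTCA, and the Abcc2 window holds AGGTCA at position -49. AGGTCA also occurs, on either strand, in the window of Abcb11 at position -56 and in windows of Abcg2 at positions -212, -121 and -197. In intact females these genes had smaller differences than Abcc2. In ovariectomized females the differences were -0.24 for Abcb11, 0.03 for Abcg2 and -0.22 for Abcc2. AGAACA also occurs, on the other strand, in the windows of Abcb11 at position -34 and Abcb4 at position -183, whose differences were smaller than those of Abcb1a and Abcg8. A second Abcg8 start site in RefSeq (chr17:84676052-84676351, plus strand) has a window with none of these matches. Over 32851 promoter windows of the same length, AGAACA occurs in 19%, ACANNNTGT in 6.85% and AGGTCA in 16.3%. These matches describe letters, not binding.

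In the absence of dexamethasone, ovariectomy lowered 2 exporters. Under vehicle 2 of the 9 tested were lower in ovariectomized females and none was higher, where 15.5% of all genes tested were lower, so the share was near the background. The groups lay apart in that direction for the same 2 genes, where 24.4% of all genes tested did so. Abcb1a was lower by 0.66 ± 0.094, with 8.20 ± 0.17 in ovariectomized and 8.87 ± 0.06 in intact females (SD, n = 3 each; limma adjusted p = 0.000835). Abcc2 was lower by 0.33 ± 0.061, with 13.46 ± 0.05 in ovariectomized and 13.79 ± 0.09 in intact females (SD, n = 3 each; limma adjusted p = 0.00284). The other 7 differed by -0.18 to 0.03, and for Abcg5 the means were 12.33 ± 0.19 in ovariectomized and 12.33 ± 0.15 in intact females (SD, n = 3 each).

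Under dexamethasone Abcc2 was the only exporter that passed in the direction opposite to that under vehicle. Of the 9 tested, 2 were higher in ovariectomized females and none was lower, where 7.74% of all genes tested were higher. For 4 of the 9, Abcg2, Abcc2, Abcc3 and Abcg8, the libraries of ovariectomized females lay above all those of intact females, where 19.5% of all genes tested did so. Abcc2 was higher by 0.43 ± 0.061, with 13.24 ± 0.06 in ovariectomized and 12.81 ± 0.07 in intact females (SD, n = 3 each; limma adjusted p = 0.00446). Abcc3 was higher by 0.49 ± 0.12, with 13.10 ± 0.06 in ovariectomized and 12.61 ± 0.25 in intact females (SD, n = 3 each; limma adjusted p = 0.0243). Its call was lost under quantile normalization (limma adjusted p = 0.0909), with only the libraries compared (limma adjusted p = 0.0593), without ovariectomized dexamethasone replicate 3 (limma adjusted p = 0.0911) and without intact dexamethasone replicate 1 (limma adjusted p = 0.0617), within a range of 0.000575 to 0.0911 over all alternatives. Abcb1a, which was lower after ovariectomy under vehicle, stood at 6.998 ± 0.15 in ovariectomized and 6.84 ± 0.04 in intact females given dexamethasone (SD, n = 3 each) and did not pass (0.15 ± 0.094, limma adjusted p = 0.289).

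**Figure D3:**
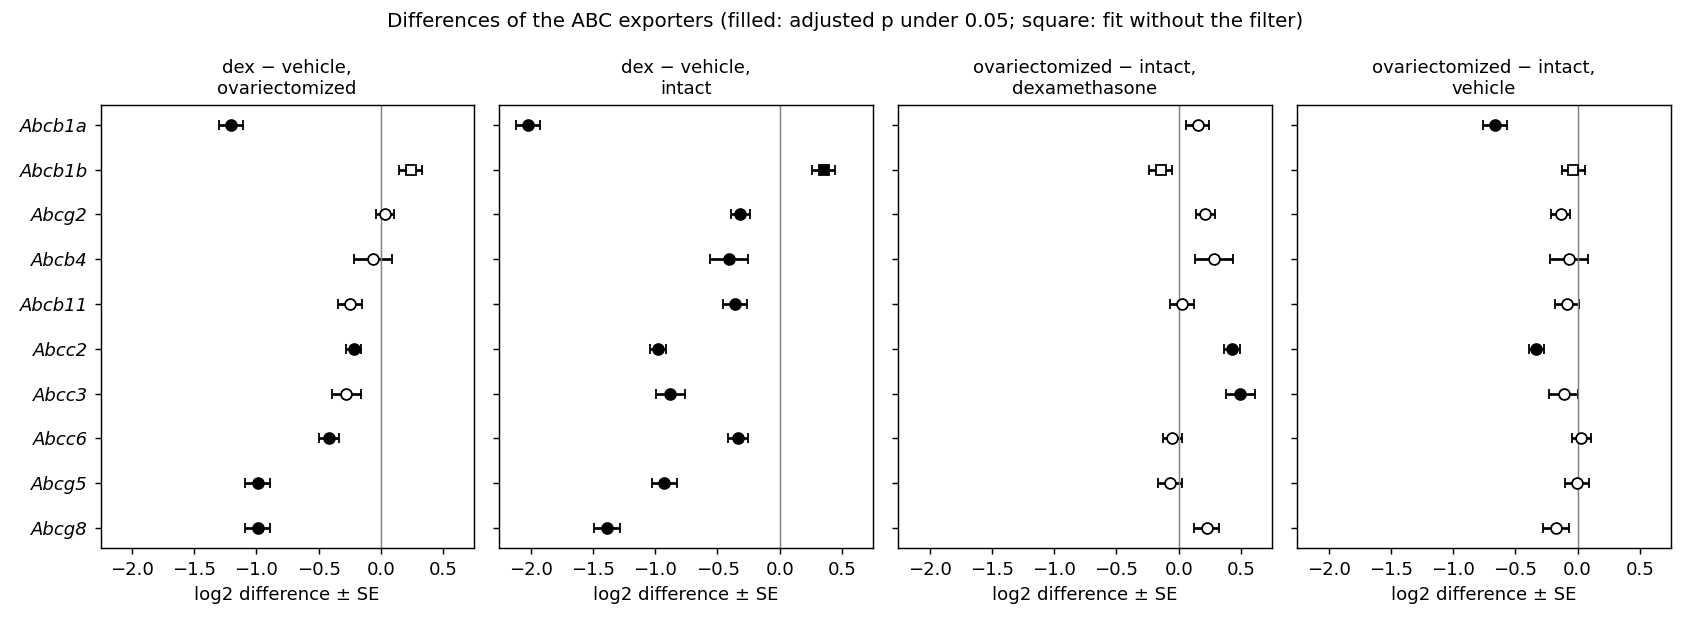
Log2 differences ± SE of the 10 exporters, dexamethasone minus vehicle in ovariectomized and intact females and ovariectomized minus intact females under dexamethasone and vehicle. Filled symbols passed at an adjusted p under 0.05, and squares mark Abcb1b, fitted without the filter. In intact females 9 of the 9 tested lie left of 0 and passed.

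The response itself differed between gonadal states for 4 of the 9 exporters tested, all with a smaller fall or none in ovariectomized females, where 15.3% of all genes tested had a difference of that sign. The difference, the response in ovariectomized minus that in intact females, was 0.82 ± 0.13 for Abcb1a (limma adjusted p = 0.00183), 0.76 ± 0.087 for Abcc2 (limma adjusted p = 0.000368), 0.61 ± 0.16 for Abcc3 (limma adjusted p = 0.0209) and 0.35 ± 0.11 for Abcg2 (limma adjusted p = 0.0329). The Abcg2 call was lost in 9 alternatives (limma adjusted p up to 0.202), and that of Abcc3 under quantile normalization (limma adjusted p = 0.0843) and without ovariectomized dexamethasone replicate 3 (limma adjusted p = 0.0504), within a range of 0.000657 to 0.0843. For Abcg8 it was 0.40 ± 0.14 and did not pass (limma adjusted p = 0.0625). For Abcb4 it was 0.35 ± 0.22, for Abcb11 0.11 ± 0.14, for Abcg5 -0.06 ± 0.14 and for Abcc6 -0.08 ± 0.11, and none of these passed. With 4 exporters the share was above the background, though 2 passed under quantile normalization. The direction was the same in all 4, as it was for 1983 of the 3234 genes called among all genes tested.

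Levels of different genes were set in order after subtracting the log2 of transcript length in kilobases, from the longest protein-coding transcript of GENCODE M21. On that scale the mean over the 12 libraries was 11.37 for Abcb11, 10.86 for Abcc6, 10.82 for Abcc3, 10.62 for Abcg5, 10.51 for Abcb4, 10.32 for Abcc2, 9.73 for Abcg8, 7.73 for Abcg2, 5.41 for Abcb1a and 1.77 for Abcb1b. Abcb11 stood above Abcc6 in 12 of 12 libraries, and the steps from Abcc2 to Abcg8, Abcg2, Abcb1a and Abcb1b also held in 12 of 12. Among the 5 genes from Abcc6 to Abcc2 each stood above the next in 5 to 9 of 12 libraries, and part of that order went with treatment. Abcg5 stood above Abcb4 in 1 of 6 dexamethasone libraries and in 6 of 6 vehicle libraries, and Abcb4 above Abcc2 in 6 of 6 dexamethasone libraries and in 2 of 6 vehicle libraries. The drug pump genes Abcg2, Abcb1a and Abcb1b stood lowest. The place of Abcc2 depends on the transcript used, of 8.027 kb against 5.005 kb for Abcc3 and 4.974 kb for Abcc6. Before the subtraction its mean was 13.33, against 13.70 for Abcb11, 13.17 for Abcc6 and 13.14 for Abcc3.

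Across the 12 libraries, which share the 4 groups, the most alike pair of exporters was Abcg5 and Abcg8 (Pearson's r of their log2 levels 0.98), followed by Abcb1a and Abcg8 (0.97). The least alike pairs were Abcc6 and Abcg2 (0.38) and Abcg2 and Abcg5 (0.40). Outside the group, the genes most like Abcb1a were Dsg2, which encodes a desmosomal cadherin (0.99), Flii (0.98) and Fam210a (0.98). Those most like Abcb11 were Aadac, an arylacetamide deacetylase gene (0.95), Akr1e1 (0.94) and the canalicular peptidase gene Dpp4 (0.94). Those most like Abcc3 were the proprotein convertase gene Pcsk6 (0.98), Tmem234 (0.97) and 0610031O16Rik (0.97). Those most like Abcg8 were C1rl (0.99), Fam210a (0.98) and the ascorbate transporter gene Slc23a2 (0.98). These correlations describe 12 libraries and carry no test.

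The rest of the ABC superfamily moved in both directions, with more falls than rises. Of 43 other ABC genes 32 were tested. With dexamethasone 8 rose and 11 fell in ovariectomized females, where 21.3% of all genes tested rose and 19.4% fell. In intact females 6 rose and 18 fell, where 22.8% of all genes tested rose and 25.9% fell. The share that fell was above that of all genes tested in both states, so falls were not confined to the exporters. Their median differences were -0.20 and -0.33. Abcd2, a peroxisomal fatty acid transporter, fell in both states, with differences of -1.35 ± 0.067 in ovariectomized and -1.74 ± 0.067 in intact females. Abca8a also fell in both, with differences of -0.86 ± 0.14 in ovariectomized and -1.40 ± 0.14 in intact females. Abca3, a lipid transporter of lamellar bodies in lung, fell with differences of -0.16 ± 0.053 in ovariectomized and -1.12 ± 0.053 in intact females. Abca6 had a difference of 0.13 ± 0.11 in ovariectomized females, which did not pass, and fell by 0.86 ± 0.11 in intact females. Abcd4, which takes part in lysosomal cobalamin export, rose by 0.84 ± 0.066 in ovariectomized and 0.78 ± 0.066 in intact females, and Abce1, a ribosome recycling factor and no transporter, rose by 0.60 ± 0.079 in ovariectomized and 0.24 ± 0.079 in intact females.

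Genes that regulate these exporters moved in both directions. Of 28 such genes 27 were tested. With dexamethasone 6 rose and 4 fell in ovariectomized females, near the 21.3% and 19.4% of all genes tested that rose and fell. In intact females 3 rose and 11 fell, where 22.8% and 25.9% of all genes tested rose and fell. Nr1h4, the bile acid receptor FXR that drives Abcb11, did not pass in ovariectomized (0.09 ± 0.068) or intact females (0.14 ± 0.068). Nr0b2, the FXR target and corepressor SHP, fell in both states, with differences of -0.85 ± 0.23 in ovariectomized and -1.37 ± 0.23 in intact females. Nr1h3, the oxysterol receptor LXR alpha that drives Abcg5 and Abcg8, rose by 0.37 ± 0.055 in ovariectomized and by 0.27 ± 0.055 in intact females. Its part in the fall of Abcg5 and Abcg8 was not tested. Nr1i2, the drug receptor PXR, did not pass in either state (0.22 ± 0.084 and -0.08 ± 0.084).

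Nr1i3, the drug receptor CAR, had a difference of -0.40 ± 0.20 in ovariectomized females, which did not pass, and fell by 0.87 ± 0.20 in intact females. Nfe2l2, the oxidative stress factor NRF2, fell in both states, with differences of -0.75 ± 0.077 in ovariectomized and -0.37 ± 0.077 in intact females. Ppara, the fatty acid receptor, fell in both states, with differences of -0.45 ± 0.11 in ovariectomized and -1.20 ± 0.11 in intact females. The liver factor genes Onecut1 and Hnf4a rose in ovariectomized females (1.42 ± 0.33 and 0.81 ± 0.088) and did not pass in intact females (-0.22 ± 0.33 and -0.03 ± 0.088). For Hnf4a, Ppara, Onecut1 and Nfe2l2 the response differed between gonadal states (0.84 ± 0.12, 0.75 ± 0.15, 1.64 ± 0.47 and -0.38 ± 0.11, limma adjusted p = 0.00125, 0.00548, 0.0255 and 0.0249). Esr1, an oestrogen receptor gene, did not pass with dexamethasone in ovariectomized (0.78 ± 0.35) or intact females (-0.88 ± 0.35). Esr1 was lower after ovariectomy under vehicle (-1.39 ± 0.35, limma adjusted p = 0.0132), and its response difference was 1.66 ± 0.495 (limma adjusted p = 0.0301).

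**Figure D4:**
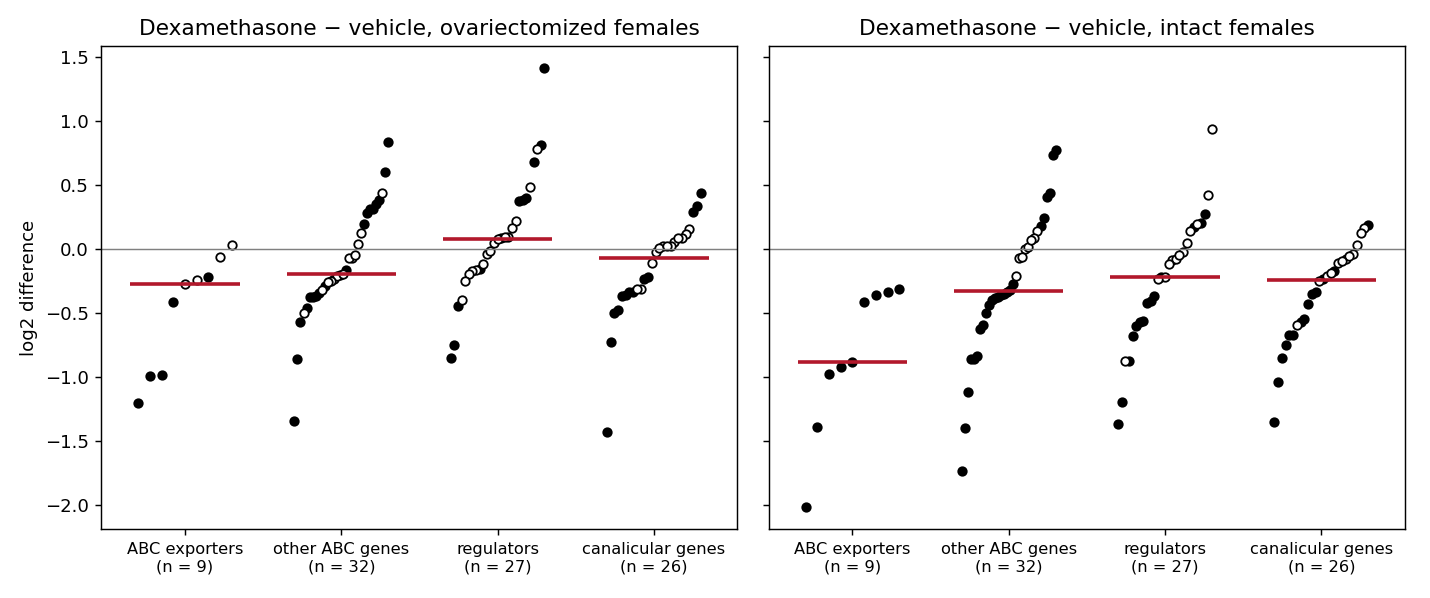
Log2 differences, dexamethasone minus vehicle, in ovariectomized and intact females for the 9 exporters tested, 32 other ABC genes, 27 regulators and 26 canalicular genes. Points are genes (filled: adjusted p under 0.05), red lines are medians. The median of the exporters was -0.28 in ovariectomized and -0.88 in intact females.

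Of 26 other genes of the canalicular membrane and of trafficking to it, 3 rose and 10 fell in ovariectomized females. There 21.3% of all genes tested rose and 19.4% fell. In intact females 1 rose and 13 fell, where 22.8% of all genes tested rose and 25.9% fell. The medians were -0.07 in ovariectomized and -0.24 in intact females. Atp7b, the copper exporter, fell in both states, with differences of -0.50 ± 0.13 in ovariectomized and -1.36 ± 0.13 in intact females. The aminopeptidase gene Anpep differed by -0.37 ± 0.076 in ovariectomized and -1.04 ± 0.076 in intact females, and the scaffold protein gene Slc9a3r1 by -0.34 ± 0.11 in ovariectomized and -0.85 ± 0.11 in intact females. The myosin gene Myo5b, which serves apical recycling, differed by -0.23 ± 0.068 in ovariectomized and -0.75 ± 0.068 in intact females, and all 3 passed in both states. Aqp8, a water channel gene, fell by 1.43 ± 0.24 in ovariectomized females and did not pass in intact females (-0.60 ± 0.24). Atp8b1, the phospholipid flippase of the canaliculus, did not pass in ovariectomized females (0.16 ± 0.067) and fell by 0.35 ± 0.067 in intact females.

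Marker levels of other cell types differed between treatments as well. The summed level of 15 endothelial markers was 13.73 to 13.99 with dexamethasone and 13.49 to 13.73 with vehicle in ovariectomized females, and 13.88 to 14.22 with dexamethasone and 13.48 to 13.64 with vehicle in intact females. That of 14 stellate cell markers was 13.89 to 14.15 with dexamethasone and 13.65 to 14.10 with vehicle in ovariectomized females, and 14.36 to 14.54 with dexamethasone and 13.77 to 14.07 with vehicle in intact females. That of 20 hepatocyte markers was 22.55 to 22.75 with dexamethasone and 22.42 to 22.56 with vehicle in ovariectomized females, and 22.42 to 22.53 with dexamethasone and 22.56 to 22.65 with vehicle in intact females. Cholangiocyte markers, on 12 genes, stood at 11.88 to 11.97 with dexamethasone and 12.25 to 12.36 with vehicle in ovariectomized females, and at 12.01 to 12.15 with dexamethasone and 12.02 to 12.14 with vehicle in intact females. Such sums follow their highest genes. With dexamethasone, 3 of 15 endothelial markers rose and 3 fell in ovariectomized females, and 5 rose and 1 fell in intact females. Of 14 stellate markers 3 rose in ovariectomized and 8 in intact females, and none fell. Of 20 hepatocyte markers 9 rose and none fell in ovariectomized females, and 8 rose and 4 fell in intact females. Of 10 cholangiocyte markers tested none rose and 4 fell in ovariectomized females, and 1 rose and 1 fell in intact females. With dexamethasone, 1 macrophage marker rose and 7 fell in ovariectomized females, and none rose and 5 fell in intact females, of 14 tested. Of 10 lymphocyte markers tested, 5 fell in each gonadal state and none rose. Over all genes tested, 21.3% rose and 19.4% fell in ovariectomized females, and 22.8% rose and 25.9% fell in intact females. The summed neutrophil markers stood at 6.92 to 7.09 with dexamethasone and 7.61 to 7.93 with vehicle in ovariectomized females, and at 7.29 to 7.43 with dexamethasone and 7.26 to 7.63 with vehicle in intact females. Of the neutrophil markers 3 were tested, and all 3 fell in ovariectomized females and none passed in intact females. Of 8 markers of intestine and kidney, Slc12a1 and Kap were listed at 0 in all libraries. Only 1 of the 8, Fabp2, passed the filter, with group means of 10.77 to 10.98. No marker of the other lists was listed at 0 in all libraries, and the part of any of them in the exporter results was not tested.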

How the data were processed

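RNA from mouse liver was sequenced in 12 libraries, and the authors deposited 1 table of log2 expression values per gene and library. Per the submitters' processing notes, the tools were DESeq2, DESeq, HTSeq, TopHat2 and Trim Galore, on the mm9 build; no source used here gives their versions, the gene annotation or the exact transformation to log2. The table holds 24962 entries for 24033 symbols, 6294 of them at 0 in all libraries; for the 392 symbols with several entries the one with the highest mean was kept. Groups came from the sample titles. Genes with a mean of at least 4 were kept (12965), without a further pseudocount, and 4 group means were fitted with limma 3.58.1 in R 4.3.3 (variance trend, 8 residual degrees of freedom, Benjamini-Hochberg adjustment over all genes tested). Low genes have compressed differences on such a scale. In data simulated for dexamethasone in intact females, on 12965 genes with normal scatter, 50 genes were changed per size. The fit recovered 26%, 74%, 98% and 100% of log2 changes of 0.3, 0.5, 1 and 2, with 8 false calls. In the real comparison 6323 genes were called. The adjusted threshold depends on how many genes change, so these rates do not carry over to the real data. Alternatives were other normalizations, filters and added constants, library weights, a replicate block, each library left out and, added after seeing the data, removal of the length and GC trend. The exporters and gene lists were chosen with earlier results of these data known. All 10 exporters were described whatever their values. Nr1h4, Nr1i2, Nr1i3, Nr1h3, Nfe2l2, Ppara and Nr0b2 were also named whatever their values. Other genes named from the ABC, regulator and canalicular lists were examples that passed in a comparison, not a ranking by size. Some with larger changes than genes named, such as Abca8b, Marveld2 and Ceacam1, were left out. For Abcb1a, Abcb11, Abcc3 and Abcg8 the 3 genes with the highest correlation were named. No library duplicated another.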

Additional observations from a re-analysis of the deposited data

Results flagged for a closer look

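For 4 exporters the dexamethasone response, tested as an interaction with limma, differed between ovariectomized and intact females. The response in ovariectomized minus that in intact females was 0.82 for Abcb1a, 0.76 for Abcc2, 0.61 for Abcc3 and 0.35 for Abcg2 on the log2 scale. Abcb1a and Abcc2 passed in all alternatives run, Abcc3 and Abcg2 did not.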

How the results depend on the processing

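Over the alternative settings run for single exporters, none of the 22 called differences changed sign in 502 values. Of these values 30 missed the threshold, 10 for Abcb4, 9 for Abcg2, 6 for Abcc3, 2 each for Abcb11 and Abcc2 and 1 for Abcc6. Of the values of differences that had not passed, 25 passed, among them Abcb11 and Abcc3 with dexamethasone in ovariectomized females. Under quantile normalization 7 exporters fell in ovariectomized and 6 in intact females. Calls of Abcb1a, Abcg5 and Abcg8 were kept in all of them. Without the filter 1 exporter, Abcb1b, rose in intact females. Exporters higher after ovariectomy under dexamethasone numbered 1 under quantile normalization, 6 with library weights, 1 with only the libraries compared and 1 to 3 with a library left out (1 without ovariectomized dexamethasone replicate 3 or intact dexamethasone replicate 1). Exporters with a differing response numbered 2 under quantile normalization, 7 with library weights and 2 to 5 with a library left out. With a library left out, 4 to 6 fell in ovariectomized and 8 to 9 in intact females, and 2 to 3 were lower after ovariectomy under vehicle.

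Single-gene differences that had not passed changed sign as follows. Under quantile normalization Abcg2 with dexamethasone in ovariectomized females was -0.016, Abcg5 after ovariectomy under vehicle 0.043, Abcb11 after ovariectomy under dexamethasone -0.144 and the response difference of Abcb11 -0.086. After ovariectomy under vehicle, Abcg5 was 0.002 with recentred medians and 0 with library weights, and Abcc6 -0.032 with library weights. With the length and GC trend removed, Abcg2 with dexamethasone in ovariectomized females was -0.022, the response difference of Abcb11 -0.044, and after ovariectomy under vehicle Abcb4 was 0.016, Abcb11 0.055 and Abcg2 0.055. With a library left out, Abcb4 ranged from -0.192 to 0.067 and Abcg2 from -0.014 to 0.076 with dexamethasone in ovariectomized females. After ovariectomy under dexamethasone Abcc6 ranged from -0.116 to 0.013 and Abcb11 from -0.01 to 0.104. After ovariectomy under vehicle Abcg5 ranged from -0.111 to 0.073, Abcb4 from -0.189 to 0.065, Abcc6 from -0.011 to 0.083 and Abcb11 from -0.195 to 0.007, and the response difference of Abcg5 from -0.142 to 0.043. The sum of Abcb1a and Abcb1b had passed with dexamethasone in both states, after ovariectomy under vehicle and for the response difference. Abcb1b alone in its place gave the opposite sign with dexamethasone in ovariectomized (0.241) and intact females (0.354), after ovariectomy under dexamethasone (-0.145) and for the response difference (-0.112), and kept the sign without passing after ovariectomy under vehicle (-0.033). The causes were not tested.

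Of all genes tested, 1662 were called between gonadal states under dexamethasone, against 768 under quantile normalization, 5777 with library weights, 601 with only the libraries compared and 207 to 1852 with a library left out (207 without ovariectomized dexamethasone replicate 3). Under vehicle 3618 were called, against 5919 with library weights, 2334 with the length and GC trend removed and 2215 to 3989 with a library left out. The response differed for 3234, against 6659 with library weights and 2174 to 3520 with a library left out. Same-numbered replicates of 2 groups compared had correlations of -0.231 to 0.396 between their deviations from the group means. Differently numbered replicates were not set beside them, so whether the numbers mark pairs or a batch was not tested. With a replicate block 5 exporters were lower with dexamethasone in ovariectomized and 9 in intact females, 2 differed after ovariectomy under each treatment and 4 had a differing response, the same counts as without it. Depth is unknown, and 3 libraries per group limit what small differences can be seen.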
